A study of Mus musculus with 15 samples.

Results

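The genes described here encode the proteins of the cytosolic ribosome. They were chosen by symbol: Rpl or Rps followed by digits, with the suffixes a, x and l allowed, together with the stalk proteins Rplp0 to Rplp2 and with Rpsa, and without the Rps6k kinases. Symbols with a further digit after the suffix were also kept, which brought in Rpl7l1, Rpl22l1 and Rps3a1. A probe set is a group of short probes on the array that reads 1 transcript, and it counted only where its annotation named exactly 1 gene. Where a gene had several such probe sets, it was represented by the brightest of them, averaged over all 15 arrays. The rule found 49 of the 18193 genes that had such a probe set, 26 of the large subunit (Rpl) and 23 of the small subunit (Rps and Rpsa). They were covered by 105 probe sets, and 24 of the genes had more than 1. A further 29 symbols of the same form, among them Rpl3, Rpl5, Rpl10, Rpl32 and Rplp1, occurred only on probe sets that name several genes and were not analysed here. Of the 49 genes, 6 are paralogues named after another ribosomal protein (Rpl3l, Rpl7l1, Rpl22l1, Rpl39l, Rps4l and Rps27l), and the reference gene table lists Rps4l as a transcribed pseudogene.

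Ribosomal proteins assemble with ribosomal RNA in the nucleolus into the large and the small subunit, which join on an mRNA to translate it. Their mRNAs are among the most abundant of most cells and begin with a short run of pyrimidines, the 5′ terminal oligopyrimidine tract, through which mTOR signalling and the protein LARP1 control their translation as a group. Growing and dividing cells, lymphocytes among them, make many ribosomes, and some paralogues are used mainly in certain tissues, such as RPL3L in heart and skeletal muscle.

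The arrays measured the whole aorta, from root to bifurcation, of male C57BL/6 mice aged 9 weeks, with 1 array per mouse. All mice, the controls included, lacked Apoe (ApoE-/-), the gene of apolipoprotein E, without which mice clear lipoproteins poorly and develop atherosclerotic plaques. Array replicates 1 to 4 were diabetic Apoe null, replicates 5 to 8 non-diabetic Apoe null, replicates 9 to 12 diabetic Apoe/RAGE null (ApoE-/- RAGE-/-) and replicates 13 to 15 non-diabetic Apoe/RAGE null. RAGE is the receptor for advanced glycation end products, encoded by Ager. The diabetic mice had been given streptozotocin, a toxin of pancreatic beta cells, once a day on 5 days from the age of 6 weeks (65 mg/kg each time), and the non-diabetic mice citrate buffer. The labels list a commercial supplier for the Apoe null mice and another laboratory's colony for the Apoe/RAGE null mice, so genotype and colony cannot be told apart. All levels below are the authors' log2 values, on which a difference of 1 is a doubling. They compare a gene between arrays and never 1 gene with another, because probe sets differ in brightness.

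Array medians lay between 4.35 and 4.42, and the smooth muscle marker Acta2 lay between 13.19 and 13.45 on every array, as fits the labelled tissue. Diabetic Apoe/RAGE null replicates 9 and 10 stood apart from their label: Decr2, which lies near Ager, was at 5.19 and 5.10 there, against 7.40 and 7.56 in replicates 11 and 12, between 6.84 and 6.98 in non-diabetic Apoe/RAGE null aortas and between 5.32 and 6.01 in the Apoe null arrays. Of 2 probe sets of Ager itself, 1 was at 4.63 and 4.48 in replicates 9 and 10, at 5.36 and 4.95 in replicates 11 and 12, between 4.89 and 5.09 in non-diabetic Apoe/RAGE null aortas and between 4.17 and 4.69 in the Apoe null arrays. It was thus higher, not lower, in the other 5 arrays labelled RAGE null, and replicates 9 and 10 lay within the Apoe null range. The other Ager probe set overlapped between all groups (3.08 to 3.66), and whether either lies in the deleted stretch is not given in the sources used here. Replicate 10 also had the highest B cell and T cell marker scores of the 15 arrays, 3.72 and 2.97, where a score is the mean deviation of a list's genes from their own 15-array means. The other 14 arrays lay between -1.19 and 1.34 for B cells and between -0.50 and 0.31 for T cells. The main counts and the named differences that rest on the diabetic Apoe/RAGE null group are therefore given also without both of these libraries. In whole tissue, fewer cells of a type and less RNA per cell cannot be told apart.

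RefSeq promoter entries (assembly GRCm38.p6) were found for 43 of the 49 genes. Windows of 30 bases around the listed start are shown for 3 genes with a positive difference in diabetic Apoe null aorta. They were chosen because they hold a pyrimidine run near that start, and the window of Rpl3l is shown as a contrast. Whether these runs are the 5′ terminal tract of the mRNAs was not tested. Rpl3l has a run of 4 bases, and it is not alone in this: Rpl37a, Rpl39 and Rps4x, which like the other 3 genes shown had positive differences, have runs of 3, 5 and 3. Capitals mark an unbroken run of at least 6 C or T that reaches to within 5 bases of the start. All 4 windows are written 5′ to 3′ on the gene's strand.
Rpl14 (chr9:120571502-120571531, plus strand): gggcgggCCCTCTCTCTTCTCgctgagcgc
Rps26 (chr10:128626492-128626521, minus strand): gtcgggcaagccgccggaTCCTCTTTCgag
Rps10 (chr17:27635230-27635259, minus strand): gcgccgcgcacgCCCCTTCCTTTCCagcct
Rpl3l (chr17:24727811-24727840, plus strand): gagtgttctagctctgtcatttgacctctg
The runs are 14, 9 and 13 bases long in Rpl14, Rps26 and Rps10. A run of at least 6 such letters within 5 bases of a listed start was present in 23 of the 43 ribosomal protein genes with an entry (53.5%), against 23.0% of all 27025 genes and 23.1% of 17491 protein-coding genes with one. The letters CCGGAAG on either strand, the core of the ETS factors' motif, stood somewhere in the 300 bases from 250 before to 50 after the start in 21 of the 43 genes (48.8%), against 9.93% of all genes and 12.9% of protein-coding genes. TATAAA on either strand stood in 6 of 43 genes, against 15.7% of all genes and 14.8% of protein-coding genes. CTTCCGG, the reverse complement of the ETS core, begins with pyrimidines and can therefore overlap a run. The matches describe the letters of these windows and were not set against the arrays' values.

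Diabetes in Apoe null aorta was the comparison in which the ribosomal protein genes lay furthest from 0 as a group, although no single gene passed the test. Diabetic aorta had the higher mean for 44 of the 49 genes, and their median difference was 0.16 log2. Over all 18193 genes 49.8% had the higher mean in diabetic aorta, and the median difference was -0.00. With limma and Benjamini-Hochberg adjustment over 45037 probe sets, 0 ribosomal protein genes had an adjusted p under 0.05, and neither had any gene of the array (0.0% of genes). At an unadjusted p under 0.05, 12 of the 49 were higher and 0 lower in diabetic aorta, against 7.27% of all genes higher and 5.94% lower. All diabetic arrays lay above all non-diabetic arrays for 17 genes and below for 0, against 4.52% and 3.1% of all genes.

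Rpl14, a protein of the large subunit, had the largest difference. Its level was 5.68, 5.69, 5.72 and 5.97 in diabetic Apoe null aortas, against 5.58, 5.36, 5.26 and 5.17 in non-diabetic Apoe null aortas. All 4 diabetic arrays were above all 4 non-diabetic ones, and replicate 4 was well above the other diabetic arrays. The difference was 0.42 ± 0.14 (SE), 1.34-fold, with an adjusted limma p of 0.36, the smallest of the 49. Its single probe set was dim, with a mean of 5.46. Rpl12, read by another dim probe set, had 5.41, 5.13, 5.77 and 5.22 in diabetic aortas and 5.09, 4.87, 5.15 and 4.89 in non-diabetic ones, and the groups overlapped (difference 0.38 ± 0.18).

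The other large-subunit genes differed by less. Rpl37a, a zinc-binding protein of the large subunit, had 12.52, 12.52, 12.61 and 12.56 in diabetic aortas, against 12.18, 12.41, 12.43 and 12.29 in non-diabetic ones, without overlap (difference 0.23 ± 0.08, adjusted p of 0.389 with limma). Rpl8 had 11.35, 11.28, 11.35 and 11.25 in diabetic aortas, against 10.98, 11.17, 11.16 and 11.07 in non-diabetic ones, and the groups did not overlap (difference 0.21 ± 0.10). In both genes replicate 5 was the lowest of the non-diabetic arrays. Rpl6, Rpl7 and Rpl27 had differences of 0.23 ± 0.10, 0.21 ± 0.09 and 0.20 ± 0.09, also without overlap. Rpl39, one of the smallest ribosomal proteins and part of the exit tunnel, had 5.93, 5.94, 6.02 and 6.07 in diabetic aortas and 5.76, 5.89, 5.80 and 5.71 in non-diabetic ones, again without overlap (difference 0.20 ± 0.08). For Rpl7a the difference was 0.20 ± 0.09, but replicate 4 lay within the non-diabetic range. Of the 26 large-subunit genes 22 were higher in diabetic aorta (median 0.17), and 4 were not: Rpl27a at -0.15 ± 0.13, Rpl37 at -0.03 ± 0.10, Rpl3l and Rpl39l.

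Of the 23 small-subunit genes 22 were higher in diabetic aorta, with a median of 0.11. Rps26, which lines the mRNA exit channel, had 11.57, 11.58, 11.64 and 11.60 in diabetic aortas, against 11.35, 11.45, 11.42 and 11.22 in non-diabetic ones. These groups did not overlap, and the difference was 0.24 ± 0.10 with an adjusted limma p of 0.416. Rps4x, encoded on the X chromosome, had 12.22, 12.27, 12.35 and 12.34 in diabetic aortas, against 11.93, 12.20, 12.20 and 12.02 in non-diabetic ones, without overlap, but only 1 of its 2 probe sets had this sign. The other was dim, at 3.40 to 3.83 over the 15 arrays. Rps10 had 12.05, 11.96, 12.02 and 12.05 in diabetic aortas, against 11.69, 11.91, 11.86 and 11.77 in non-diabetic ones, also without overlap. Of its 6 probe sets 5 were higher in diabetic aorta. The difference was -0.07 once probe sets ending in _x_at, _s_at or _a_at, which can also read related transcripts, were left out. That value came from a single dim probe set, at 3.91 to 4.61 over the 15 arrays. Rps6, the substrate of the S6 kinases, had a difference of 0.24 ± 0.14 with overlapping groups, and Rps19, whose loss causes Diamond-Blackfan anaemia in humans, 0.09 ± 0.11. Rps16 was the exception at -0.02 ± 0.09, and its probe set had a mean of 2.34, the dimmest of the 49.

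**Figure D1:**
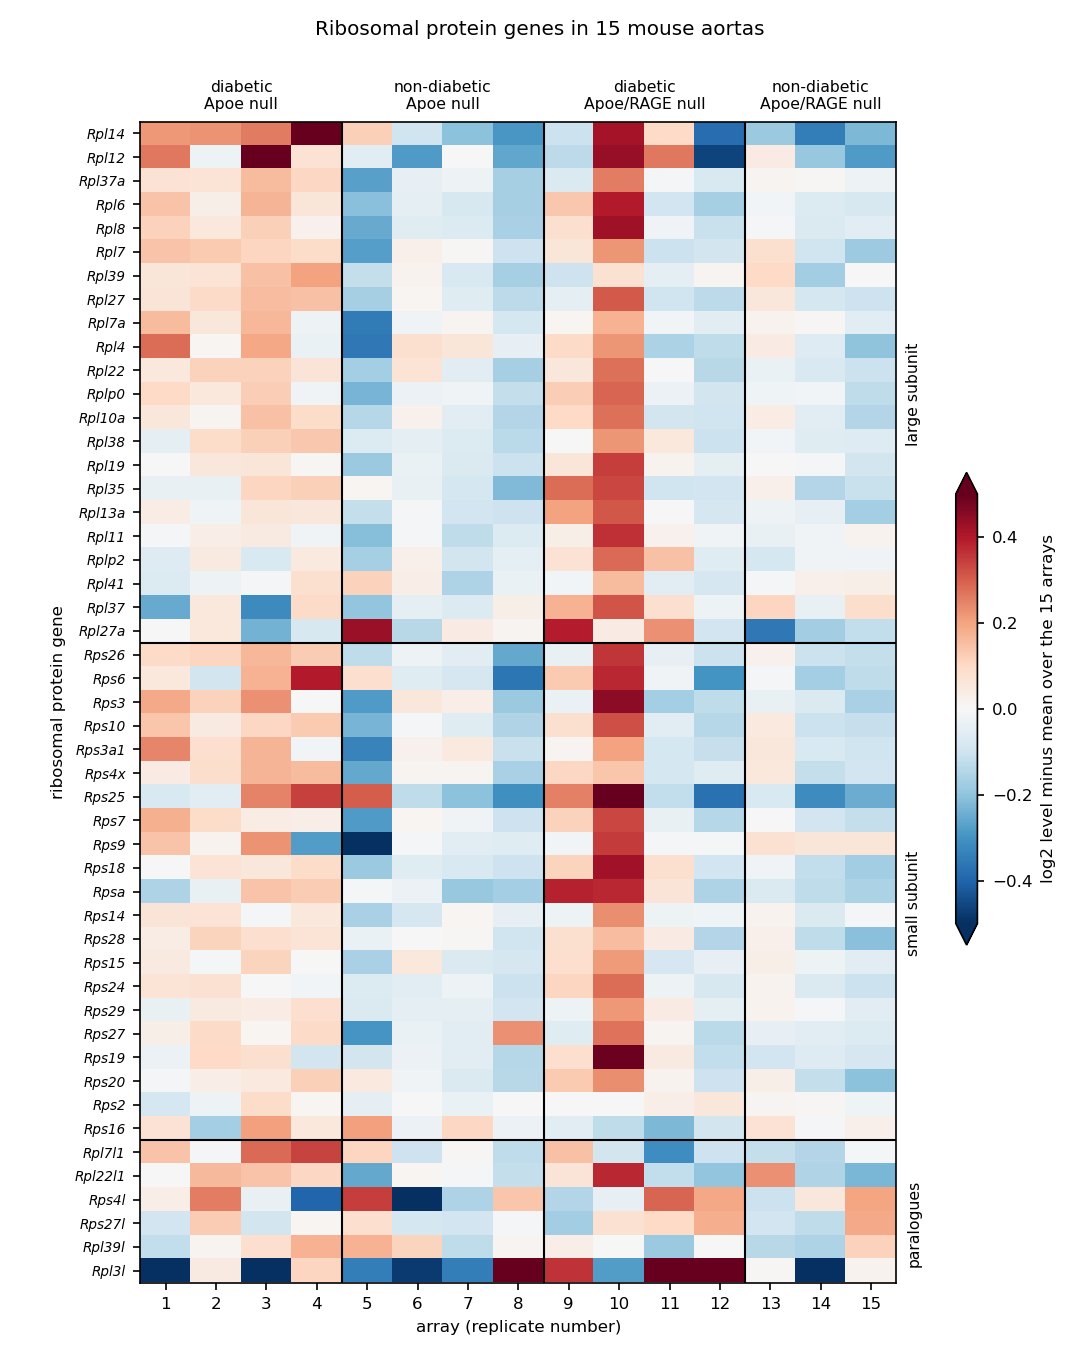
Log2 level of each of the 49 ribosomal protein genes (rows, in blocks for the large subunit, the small subunit and the paralogues) on each of the 15 arrays (columns, by group), as the deviation from the gene's own mean over the arrays. Columns 1 to 4 are mostly red and 5 to 8 mostly blue, column 10 is the reddest, and column 5 is the lowest of all 15 for 23 genes.

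Brighter and dimmer probe sets were also counted apart. All 36 ribosomal protein genes with a mean level of at least 9 were higher in diabetic Apoe null aorta, against 61.4% of the 1519 genes of that brightness, and for 15 of the 36 the diabetic arrays all lay above the non-diabetic ones and for 0 below, against 8.23% and 3.29%. Of the 13 dimmer ones 8 were higher, with a median of 0.10. The level of 9 was chosen after the values were seen. At an unadjusted p under 0.05, 10 of the 36 were higher and 0 lower, against 197 and 186 of the 1519.

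Averaged over the 49 genes, the ribosomal protein score was 0.03, 0.05, 0.09 and 0.07 in diabetic Apoe null aortas, against -0.11, -0.05, -0.06 and -0.09 in non-diabetic Apoe null aortas. The 4 diabetic arrays were all above 0 and the 4 non-diabetic arrays all below. Leaving out each of these 8 arrays in turn left between 42 and 46 genes higher in diabetic aorta, with medians between 0.13 and 0.18, and left 0 genes whose diabetic arrays all lay below the non-diabetic ones. Replicate 5 held the lowest value of all 15 arrays for 23 genes, and without it 46 genes were higher and the median was 0.13.

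Among the markers, brown and white adipocyte scores were lower in 3 of the 4 diabetic Apoe null arrays than in all non-diabetic ones. For brown adipocytes they were -0.91, 0.30, -1.20 and -0.62 in diabetic aortas, against 0.68, -0.07, 0.05 and 0.40 in non-diabetic ones. Replicate 2, the diabetic array within the non-diabetic range, had a ribosomal protein score of 0.05, inside the range of its group. Not every adipocyte marker followed its score. Ppargc1a, on the brown list, had 7.45, 8.67, 7.72 and 8.72 in diabetic aortas, against 7.64, 6.95, 7.36 and 8.10 in non-diabetic ones. Retn, on the white list, was at 9.46 in diabetic replicate 4, within the non-diabetic range of 9.15 to 9.74. Macrophage scores ran between -0.15 and 0.41 in diabetic aortas and between -0.39 and -0.08 in non-diabetic ones, and all 6 macrophage markers had the higher mean in diabetic aorta. The part of these cell types in the ribosomal protein difference was not tested.

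**Figure D2:**
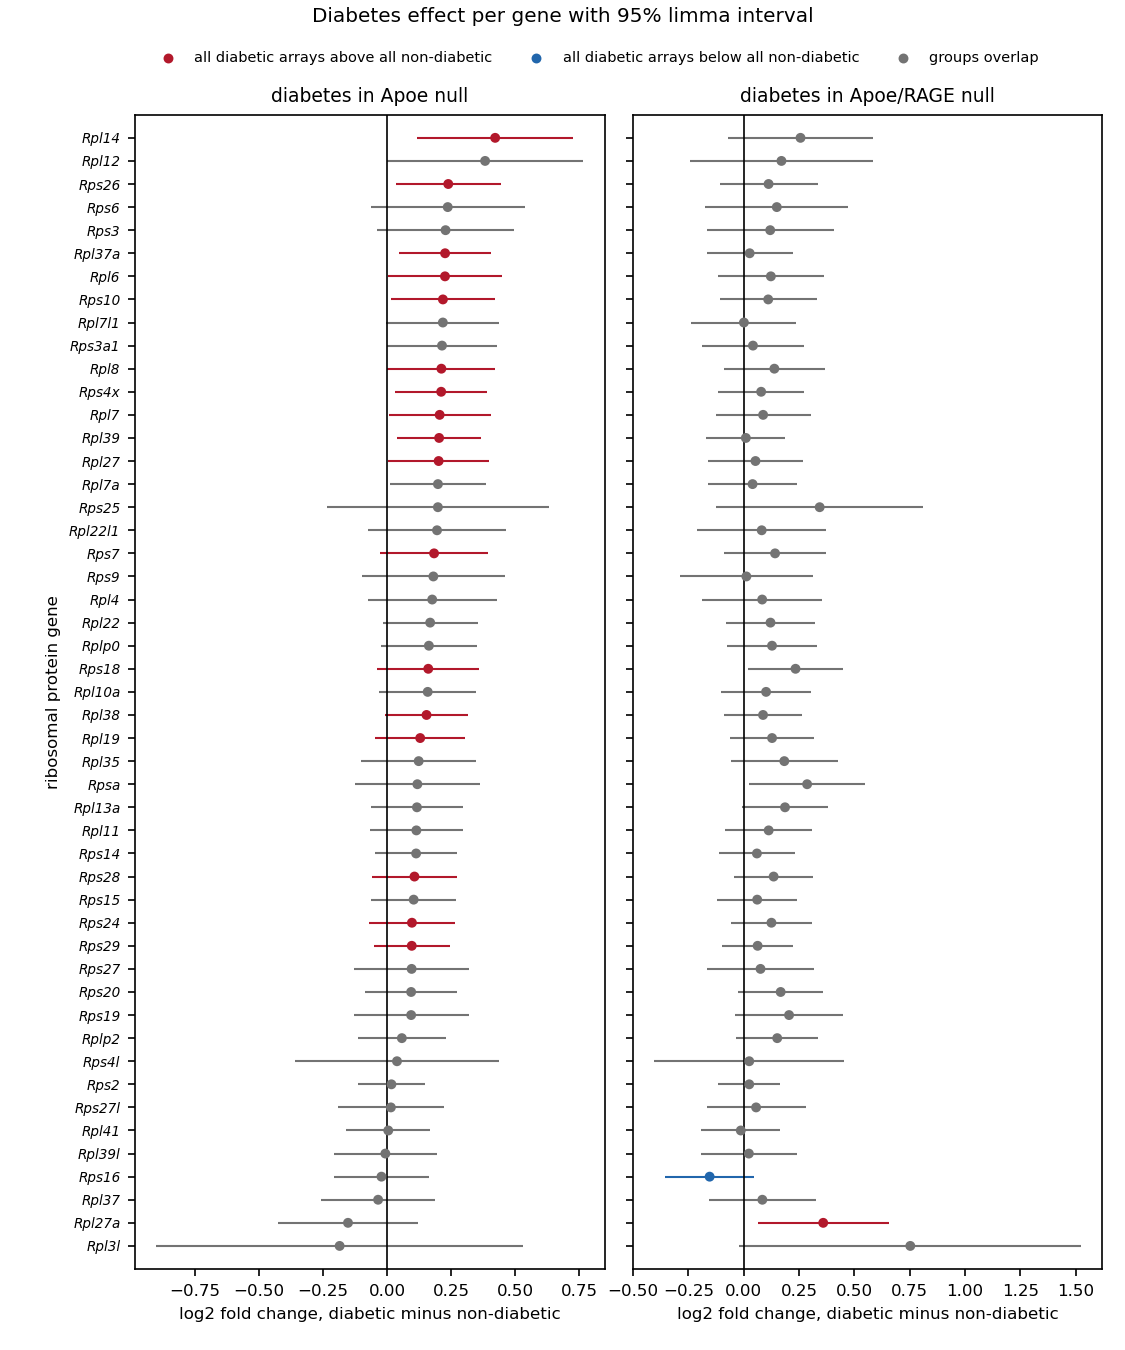
Log2 fold change of each gene between diabetic and non-diabetic aorta with its 95% limma interval, in Apoe null mice (left) and in Apoe/RAGE null mice (right), in the gene order of the left panel. Red points, 17 on the left and 1 on the right, are genes whose diabetic arrays all lay above the non-diabetic ones. The 1 blue point, Rps16 on the right, is the reverse, and no gene had an adjusted p under 0.05.

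Other genes of the translation machinery were set beside these. None of the genes on the lists below passed the adjusted test for diabetes in Apoe null aorta. Fau, the small-subunit protein fused to a ubiquitin-like peptide and so outside the symbol rule, differed by 0.14 ± 0.10. Of 38 ribosome assembly factors 34 were higher in diabetic aorta (median 0.14), and 9 of them were higher at an unadjusted p under 0.05, against 7.27% of all genes. Tsr1, needed to mature the small subunit, differed by 0.41 ± 0.13, Heatr1, needed for transcription and processing of ribosomal RNA, by 0.36 ± 0.10, and Gnl3, the nucleolar GTPase nucleostemin, by 0.28 ± 0.10. Adjusted limma p-values were 0.354, 0.319 and 0.368.

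Initiation factors were higher in 21 of 26 cases (median 0.12) and elongation and release factors in 10 of 13 (median 0.07). Eef1e1, a scaffold component of the tRNA synthetase complex, had the largest of these differences, 0.65 ± 0.14 (adjusted p of 0.26 with limma). Naca, a chaperone of nascent chains, differed by 0.32 ± 0.12. Eif4ebp1, the translation repressor that mTOR inactivates, was lower, at -0.59 ± 0.17 (adjusted p of 0.34 with limma). Growth regulators upstream of ribosome synthesis split, with 11 of 19 higher.

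Mitochondrial ribosomal proteins, which build the separate ribosome inside mitochondria, lay on the other side. Diabetic Apoe null aorta had the lower mean for 75 of 76 of them, with a median of -0.21, and 8 were lower at an unadjusted p under 0.05, against 5.94% of all genes. Mrps15 differed by -0.33 ± 0.12 and Mrpl39 by -0.50 ± 0.19 (adjusted p of 0.383 and 0.397 with limma). Their score was -0.25, 0.12, -0.31 and -0.23 in diabetic aortas, against 0.24, -0.11, -0.03 and 0.16 in non-diabetic ones. Replicate 2 was the diabetic array that lay among the non-diabetic ones, as it did for the brown adipocyte score. In the other comparisons the mitochondrial list had a median of -0.09 for diabetes in Apoe/RAGE null aorta (17 of 76 higher) and 0.19 for RAGE deletion in diabetes (69 of 76 higher). The first of these medians changed sign with arrays left out, and the second varied in size but kept its sign. For diabetes in Apoe/RAGE null aorta the median turned to 0.03 without replicate 15 (51 of 76 higher) and to 0.11 without replicates 9 and 10 (68 of 76 higher), and it was -0.02 without replicate 9 or replicate 10 (32 and 31 of 76 higher). For RAGE deletion in diabetes it ran from 0.11 to 0.29 with 1 array left out in turn, with 61 to 74 of 76 higher. It was 0.37 without replicates 9 and 10, with 75 of 76 higher.

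**Figure D3:**
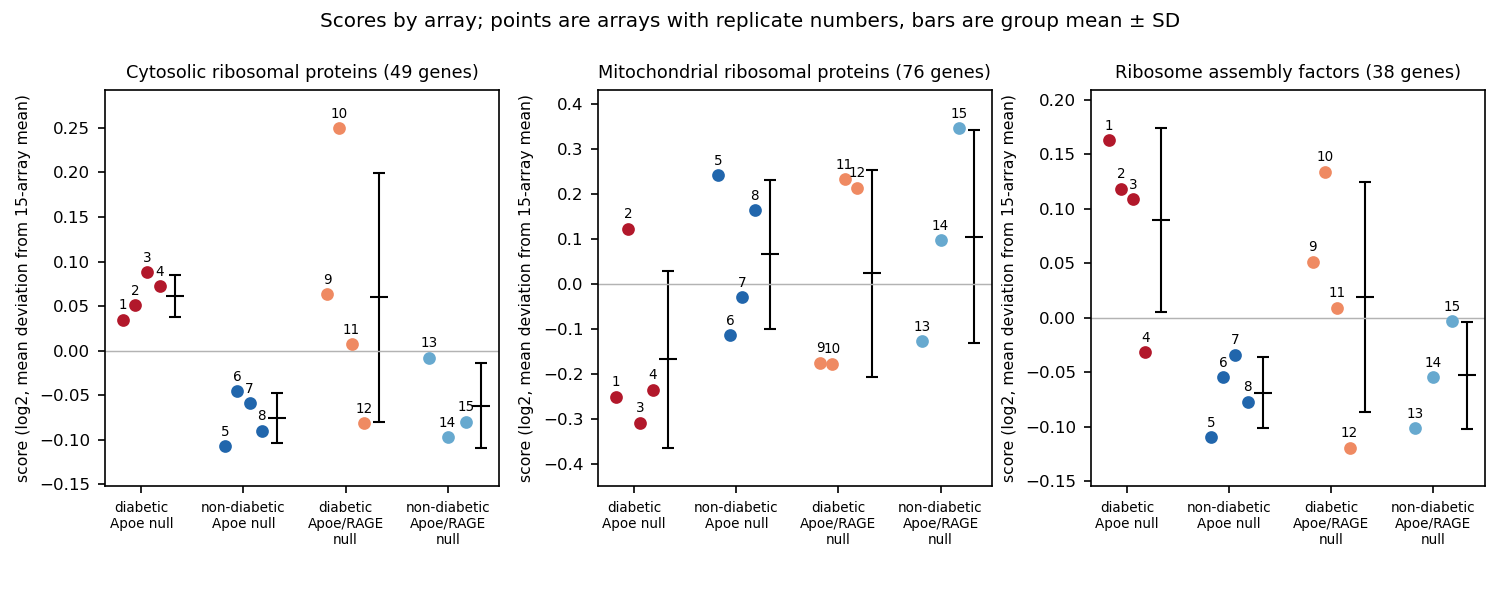
Scores of cytosolic ribosomal proteins, mitochondrial ribosomal proteins and ribosome assembly factors on each array, as the mean deviation (log2) of the list's genes from their 15-array means. Points are arrays with their replicate numbers, and bars are group means ± SD. In Apoe null aorta the cytosolic score separated diabetic (0.03 to 0.09) from non-diabetic arrays (-0.11 to -0.05), as did the assembly factor score by a narrow margin (replicate 4 just above replicate 7), while the mitochondrial score overlapped, and replicate 10 was the highest array for the cytosolic score at 0.25.

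Diabetes in Apoe/RAGE null aorta asks whether the same contrast looks alike without RAGE. Diabetic aorta had the higher mean for 47 of the 49 genes with a median of 0.11, against 44.2% of all genes and a median of -0.02. The count changed with replicate 10. Without it 37 genes were higher and the median was 0.03, and without replicates 9 and 10 it was 21 genes and -0.01. No gene passed the adjusted test. At an unadjusted p under 0.05, 3 were higher and 0 lower (3.74% and 3.97% of all genes). With replicates 9 and 10 left out it was 1 higher and 0 lower (2.43% and 1.81% of all genes). The groups did not overlap for 1 higher and 1 lower gene, against 2.39% and 4.3% of all genes. This count also moved with single arrays. It was 2 higher and 3 lower without replicate 10 (3.47% and 5.93% of all genes) and 3 higher and 4 lower without replicates 9 and 10 (8.11% and 11.4%). Without replicate 12 the diabetic arrays were apart and higher for 12 genes (7.92% of all genes), and without replicate 13 for 6 (6.1%).

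Replicate 10 held the highest value of all 15 arrays for 33 of the 49 genes. The ribosomal protein score was 0.06, 0.25, 0.01 and -0.08 in diabetic Apoe/RAGE null aortas, against -0.01, -0.10 and -0.08 in non-diabetic Apoe/RAGE null aortas. Replicate 12 lay within the non-diabetic range, and replicate 11 just above it. The array with the highest ribosomal protein score was also the array with the highest B cell, T cell, macrophage and neutrophil scores, with Ms4a1 (the B cell antigen CD20) at 8.51, against 2.80 to 6.23 on the other arrays. Replicate 12, the array with the lowest ribosomal protein score of its group, had Ms4a1 at 3.47. Replicate 9 had Ms4a1 lower still, at 3.08, with a ribosomal protein score of 0.06. Non-diabetic Apoe null replicate 5, with the lowest ribosomal protein score of the 15 arrays (-0.11), had Ms4a1 at 5.27. The part of these cell types in the result was not tested.

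The 3 genes at an unadjusted p under 0.05 were Rpl27a, Rpsa and Rps18. Rpl27a had 8.15, 7.80, 7.98 and 7.66 in diabetic Apoe/RAGE null aortas, against 7.40, 7.58 and 7.63 in non-diabetic ones. These groups did not overlap, with a difference of 0.36 ± 0.14 and an adjusted limma p of 0.674, and 1 of the gene's 2 probe sets had this sign. The other was dim, at 2.97 to 3.45 over the 15 arrays. Without replicates 9 and 10 the Rpl27a difference was 0.28. Rpsa, which also serves as a laminin receptor, had 12.29, 12.28, 11.97 and 11.76 in diabetic aortas, against 11.83, 11.78 and 11.75 in non-diabetic ones. Replicates 9 and 10 were the highest and replicate 12 lay within the non-diabetic range. The difference was 0.29 ± 0.12, and 0.07 without replicates 9 and 10. For Rps18 the difference was 0.23 ± 0.10 with overlapping groups. It was 0.10 without replicates 9 and 10 and -0.13 without the _x_at, _s_at and _a_at probe sets. The last value came from a dim probe set, at 4.305 to 5.02 over the 15 arrays. Rps16 was lower in all 4 diabetic arrays than in the 3 non-diabetic ones (2.28, 2.21, 2.12 and 2.25 against 2.41, 2.33 and 2.37), on the dimmest probe set.

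RAGE deletion in diabetic aorta was the only comparison of the 4 in which any probe set of the array passed the adjusted limma test, 110 of 45037 (0.244%), or 0.313% of genes, and no ribosomal protein gene was among them. Diabetic Apoe/RAGE null aorta had the higher mean for 23 of the 49 genes, with a median of -0.02 (49.4% and -0.00 for all genes). At an unadjusted p under 0.05, 2 were higher and 1 lower, against 6.62% and 11.3% of all genes. It was 1 higher and 7 lower without replicates 9 and 10 (10.6% and 10.4% of all genes). The groups overlapped for all 49 genes, where 1.86% of all genes were apart and higher and 5.86% apart and lower. Without replicate 10, 9 genes were higher and the median was -0.09. In that run 8 genes were apart and lower and 1 was apart and higher (8.68% and 3.82% of all genes). Without replicates 9 and 10, 7 were higher and the median was -0.13. Then 24 were apart and lower and 1 was apart and higher (14.6% and 13.3% of all genes). Only 2 arrays were left in the diabetic Apoe/RAGE null group in that run. Without replicate 12, 34 genes were higher and the median was 0.03, and without replicate 11 it was 27 genes and 0.02.

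Rpl7l1 had the smallest p in this comparison. This paralogue of Rpl7 works in ribosome assembly and its gene lies within 20 Mb of Ager. Its level was 7.83, 7.59, 7.37 and 7.58 in diabetic Apoe/RAGE null aortas, against 7.83, 7.68, 7.97 and 8.02 in diabetic Apoe null aortas. Replicate 9 lay within the diabetic Apoe null range and the other 3 below it. The difference was -0.28 ± 0.10 with an adjusted limma p of 0.221, and all 3 of its probe sets had this sign. Without replicates 9 and 10 it was -0.40 with 2 of the 3 probe sets of this sign, the other being 0.32 higher in diabetic Apoe/RAGE null aorta. For Rpl14 and Rpl37, given next, the differences without these replicates were -0.45 and 0.13. Rpl14 was also lower, at -0.30 ± 0.14, with 5.35, 5.88, 5.56 and 5.08 in diabetic Apoe/RAGE null aortas against the 5.68 to 5.97 given above, so that replicate 10 alone lay within that range. Rpl37 was higher, with 8.80, 8.94, 8.71 and 8.60 in diabetic Apoe/RAGE null aortas and 8.38, 8.68, 8.31 and 8.72 in diabetic Apoe null aortas (difference 0.24 ± 0.10, adjusted p of 0.292 with limma). Those groups overlapped.

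**Figure D4:**
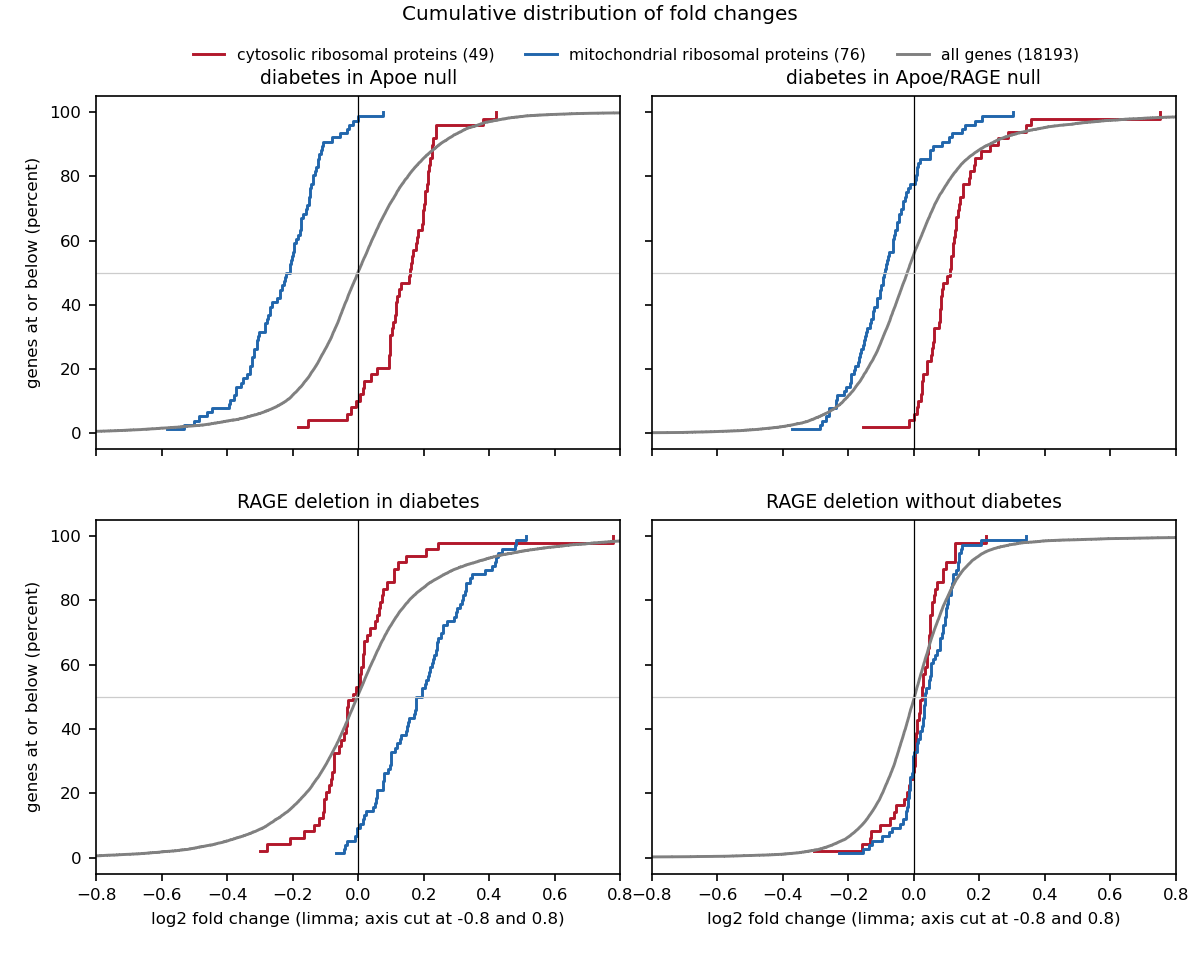
Cumulative share of genes (percent) at or below each log2 fold change in the 4 comparisons, for the 49 cytosolic ribosomal protein genes, 76 mitochondrial ribosomal protein genes and all 18193 genes. In diabetic Apoe null aorta the cytosolic curve (median 0.16) lay right of all genes over most of its length and the mitochondrial curve (median -0.21) left of them. With RAGE deletion in diabetes the cytosolic curve crossed 0 near its middle (median -0.02).

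RAGE deletion without diabetes compared the genotypes in mice given buffer. Non-diabetic Apoe/RAGE null aorta had the higher mean for 36 of the 49 genes, against 50.6% of all genes, and the median was 0.02. Without replicate 13 it was 22 genes and a median of -0.01. No gene passed the adjusted test (adjusted p = 1.00 for every one of the 49 with limma), and 0 were higher and 1 lower at an unadjusted p under 0.05 (1.34% and 1.28% of all genes). That gene was Rpl27a, with 7.40, 7.58 and 7.63 in non-diabetic Apoe/RAGE null aortas against 8.19, 7.62, 7.79 and 7.77 in non-diabetic Apoe null aortas, a difference of -0.30 ± 0.14. Replicate 5 was the high array there, and replicate 15 lay above replicate 6, so the groups overlapped. Rps9 was the 1 gene whose groups were apart, at 11.40, 11.39 and 11.39 against 10.83, 11.32, 11.28 and 11.27 (2.3% of all genes were apart and higher and 2.57% apart and lower). Its difference of 0.22 ± 0.14 was 0.11 without replicate 5, and it changed sign on the mean of the gene's probe sets (-0.01).

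The interaction, the diabetes difference in Apoe/RAGE null aorta minus that in Apoe null aorta, was above 0 for 16 of the 49 genes with a median of -0.04. Over all genes 49.8% were above 0, and 0 genes of the array passed the adjusted test. Only Rpl27a had an unadjusted p under 0.05, at 0.51 ± 0.19 (adjusted p of 0.675 with limma), against 2.41% of all genes above 0 and 6.16% below 0 at that level. Without replicates 9 and 10 it was 0.44, and the median over the 49 genes -0.16. For none of the 49 genes was the diabetes difference shown to differ between the genotypes by the adjusted test.

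Each paralogue can be set beside the protein it is named after, each gene compared only with itself between arrays. In diabetic Apoe null aorta 4 of 6 were higher with a median of 0.03, against 40 of 43 and a median of 0.16 for the others, and the difference between these groups of genes was not tested. Rpl22l1, a paralogue of the RNA-binding protein Rpl22, differed by 0.19 ± 0.13 with Rpl22 at 0.17 ± 0.09, and Rpl7l1 by 0.22 ± 0.10 with Rpl7 at 0.21 ± 0.09. Rps27l, a target of p53, differed by 0.02 ± 0.10 with Rps27 at 0.10 ± 0.11. Rpl39l, known mainly from testis, was at -0.01 ± 0.09 on a probe set with a mean of 2.63, with Rpl39 at 0.20 ± 0.08. Rps4l was at 0.04 ± 0.19 with Rps4x at 0.21 ± 0.08.

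Rpl3l varied most of the 49 between arrays of a group, with a residual SD of 0.54. Its level was 3.09, 3.67, 2.96 and 3.73 in diabetic Apoe null aortas, 3.28, 3.15, 3.28 and 4.49 in non-diabetic Apoe null aortas, 3.98, 3.34, 4.75 and 4.48 in diabetic Apoe/RAGE null aortas and 3.63, 2.89 and 3.64 in non-diabetic Apoe/RAGE null aortas. The highest arrays were replicates 11, 8 and 12. Among the 4 comparisons of 2 groups, RAGE deletion in diabetic aorta gave its largest difference, 0.78 ± 0.33 with an adjusted limma p of 0.291, and diabetes in Apoe/RAGE null aorta gave 0.75 ± 0.36 (adjusted p of 0.692 with limma), both with overlapping groups. The interaction was 0.94 ± 0.49 (adjusted p of 0.719 with limma). Without replicates 9 and 10 these were 1.25, 1.23 and 1.41. Diabetes in Apoe null aorta gave -0.18 ± 0.33, which turned to 0.13 without replicate 8.

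Skeletal muscle markers also varied between arrays. The score of 13 markers, such as Acta1 and Tnnt3, fell into separate clusters, with 8 arrays between -2.04 and -0.76 and 7 arrays between 0.79 and 2.78. Not every marker followed these clusters. Myh4 was at 3.47 and 3.26 in replicates 9 and 10 of the higher cluster, against 2.36 to 3.87 in the lower one. Tcap overlapped, at 8.56 to 10.03 in the lower cluster and 9.06 to 10.42 in the higher one. Rpl3l lay between 2.89 and 3.64 in the lower cluster and between 3.34 and 4.75 in the higher one. Within the lower cluster the correlation of Rpl3l with the score was r = 0.15 and rho = 0.07 (exact two-sided permutation p = 0.712 and 0.882, n = 8), and without the 2 arrays farthest from the median r was -0.01. Within the higher cluster it was r = 0.71 and rho = 0.71 (exact two-sided permutation p = 0.07 and 0.0881, n = 7), and 0.60 without the 2 farthest. Adjusted over the 2 clusters, the p-values of r were 0.712 and 0.14. All 4 diabetic Apoe/RAGE null arrays were in the higher cluster and all 3 non-diabetic Apoe/RAGE null arrays in the lower one, so for Rpl3l in that genotype diabetes and muscle content cannot be told apart. Cardiac muscle scores lay between 0.09 and 1.05 in diabetic Apoe/RAGE null aortas and between -1.49 and -0.06 in non-diabetic ones. Replicate 8 had the highest cardiac score of the 15 arrays, 3.89, and replicate 11 the next highest, 1.05. Replicate 12, with Rpl3l at 4.48, had 0.15. The relation of Rpl3l with the cardiac score was not tested.

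**Figure D5:**
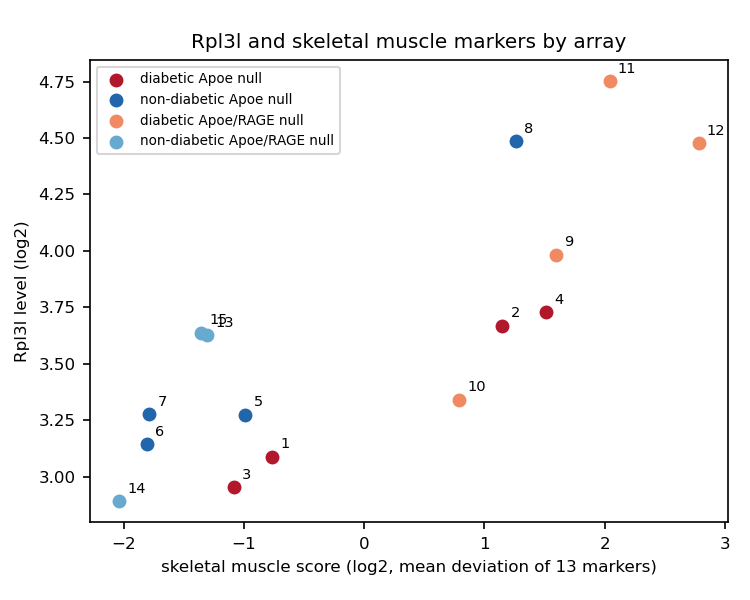
Log2 level of Rpl3l against the skeletal muscle score (mean log2 deviation of 13 markers) on each of the 15 arrays, coloured by group and numbered by replicate. The arrays form a lower cluster of 8 and a higher cluster of 7, and Rpl3l reached 4.75 in the higher one and 3.64 in the lower.

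Of the 49 genes 7 lie within 20 Mb of Ager: Rps2, Rpl3l, Rps10, Rpl10a, Rps28, Rps18 and Rpl7l1. With RAGE deletion 4 of these 7 were higher without diabetes (median 0.00) and 3 of 7 in diabetes (median -0.03), against 32 and 20 of the other 42 (medians 0.03 and -0.01). With all arrays the groups of all 7 overlapped in both genotype comparisons. Once replicates 9 and 10 were left out, 2 of the 7 were higher in diabetic Apoe/RAGE null aorta (median -0.13). In that run 1 of the 49 genes was apart and higher and 24 were apart and lower, against 13.3% and 14.6% of all genes. For 4 of the 7, 1 higher and 3 lower, the remaining replicates 11 and 12 lay apart from the diabetic Apoe null arrays. Rpl3l was above them, at 4.75 and 4.48 against at most 3.73. Rpl7l1 was below them, at 7.37 and 7.58 against at least 7.68, as were Rpl10a, at 11.67 and 11.66 against at least 11.77, and Rps10, at 11.86 and 11.78 against at least 11.96.

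The least variable ribosomal protein gene was Rps2, which stayed between 11.70 and 11.88 on all 15 arrays (residual SD 0.04) and differed by 0.02 ± 0.06 with diabetes in Apoe null aorta. Rps29 and Rps14 followed with residual SDs of 0.07 and 0.08, and Rps25 (0.32) and Rps4l (0.29) came nearest to Rpl3l. The stalk proteins, which recruit the GTPase factors, are represented by Rplp0 and Rplp2. Rplp0 had 11.98, 11.93, 12.00 and 11.86 in diabetic Apoe null aortas and 11.65, 11.85, 11.86 and 11.76 in non-diabetic ones, a difference of 0.16 ± 0.09, with diabetic replicate 4 and non-diabetic replicate 7 at the same value. Rplp2 differed by 0.06 ± 0.08. Rpl11 and Rpl13a, which have known roles outside the ribosome, in p53 control and in silencing of inflammatory mRNAs, differed by 0.11 ± 0.08 and 0.12 ± 0.08.

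Over all 105 probe sets of the 49 genes, 90 were higher in diabetic Apoe null aorta with a median of 0.13, and at an unadjusted p under 0.05 there were 25 higher and 1 lower, against 5.78% and 4.86% of all 45037 probe sets. Diabetes in Apoe/RAGE null aorta gave 91 of 105 and a median of 0.11, RAGE deletion in diabetes 58 of 105 and 0.01 (56 of 105 and 0.00, and 21 of 105 and -0.13, in these 2 comparisons without replicates 9 and 10), and RAGE deletion without diabetes 65 of 105 and 0.01. For 32 of the 49 genes the probe set used ends in _x_at, _s_at or _a_at, and ribosomal protein genes have many processed pseudogenes. How much of these signals comes from such copies was not tested.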

How the data were processed

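RNA from 15 aortas was hybridised to Affymetrix arrays. The authors deposited log2 levels, and the submitters' processing notes name RMA. Its version and whether all arrays were normalized in 1 run are not given in the sources used here. The 64 control probe sets among 45101 were dropped, which left 45037 for the tests. No filter was applied, and arrays have no depth, so the number of arrays limits the precision. Symbols came from the array annotation, and all 49 genes matched the reference gene table by Entrez ID.

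The 4 comparisons and the interaction were fitted together over all 15 arrays, a mean for each group, using limma 3.58.1 (R 4.3.3), with Benjamini-Hochberg adjustment at a threshold of 0.05. The fit was tested on simulated data. Figures used matplotlib 3.10.9. Each mouse was counted as a replicate. The members, lists, markers and alternatives were chosen with earlier results of these data known. Genes were named by rule: the 8 positive and 8 negative members of smallest p per comparison, paralogues with their namesakes, stalk and well-known proteins, members within 20 Mb of Ager, the 3 most and least variable, and up to 3 genes per other list. Correlations for Rpl3 were not run, since its probe sets name several genes.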

Additional observations from a re-analysis of the deposited data

Results flagged for a closer look

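A single array stood far from the other 3 of its group (by Dixon's test at the 95% level) in 8 of 150 groups of values tried, where chance alone gives about 1 in 20. Replicate 10 was the high array in 4 of the 8. In diabetic Apoe/RAGE null aorta it had Rpl11 at 11.25 with the others at 10.87 to 10.92, Rps14 at 12.45 with the others at 12.19, Rps26 at 11.83 with the others at 11.37 to 11.44, and Rps9 at 11.68 with the others between 11.31 and 11.32. In the same group Rpl39l was low in replicate 11, at 2.45 with the others at 2.63 to 2.66. In non-diabetic Apoe null aorta Rps9 was low in replicate 5, at 10.83 with the others at 11.27 to 11.32, and Rpl3l was high in replicate 8, at 4.49 with the others at 3.15 to 3.28. In diabetic Apoe null aorta Rpl14 was high in replicate 4, at 5.97 with the others at 5.68 to 5.72.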

How the results depend on the processing

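No ribosomal protein gene passed the adjusted threshold in any comparison under any alternative run. At an unadjusted p under 0.05 the counts were 12 for diabetes in Apoe null, 1 for RAGE deletion without diabetes, 3 for diabetes in Apoe/RAGE null, 3 for RAGE deletion in diabetes and 1 for the interaction. The median for diabetes in Apoe null stayed between 0.12 and 0.18. Without replicates 9 and 10 the medians were -0.0069 for diabetes in Apoe/RAGE null, -0.13 for RAGE deletion in diabetes and -0.16 for the interaction. With 1 array left out in turn they ran from 0.028 to 0.16 for diabetes in Apoe/RAGE null, from -0.12 to -0.0049 for the interaction and from -0.0925 to 0.025 for RAGE deletion in diabetes.

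Of 877 repeats of 37 gene differences 870 kept sign and call. None of these differences had an adjusted limma p under 0.05 in the main run or in a repeat, so the count describes the sign alone. Size was not part of it, and Rpsa for diabetes in Apoe/RAGE null ran from 0.074 to 0.39. The 7 reversals were Rps10 for diabetes in Apoe null (-0.074), Rps18 for diabetes in Apoe/RAGE null (-0.13) and Rps9 for RAGE deletion without diabetes (-0.11) without the _x_at, _s_at and _a_at probe sets; Rps9 on the mean of its probe sets (-0.012); Rpl3l without replicate 8 for diabetes in Apoe null (0.13) and RAGE deletion without diabetes (0.15); and Rpl3l in the second of these without replicate 14 (0.088). With 1 array left out Rpl3l ran from -0.32 to 0.13 and from -0.29 to 0.15 in these comparisons. Without the _x_at, _s_at and _a_at probe sets, Rps10, Rps18 and Rps9 were each read by a dim probe set. Their levels over the 15 arrays were 3.91 to 4.61, 4.305 to 5.02 and 3.60 to 4.36. The pooled relation of Rpl3l with the muscle score is not given, since within its clusters r was 0.15 and 0.71, both short of the threshold; the split was added after the data were seen.

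Counts of all probe sets past the threshold moved more. For diabetes in Apoe null the count was 0, and it was 1 with quantile normalization, without dimmer probe sets, with 1 probe set per gene or without the _x_at, _s_at and _a_at probe sets, 5 with only the compared groups, 7 with array weights, 76 at B above 0, 4791 at an unadjusted p under 0.05 and 0 to 3 with 1 array left out. For RAGE deletion without diabetes it was 5 with only the compared groups and 1159 at an unadjusted p under 0.05. For diabetes in Apoe/RAGE null it was 12 with only the compared groups, 4 at B above 0, 3269 at an unadjusted p under 0.05 and 0 to 49 with 1 array left out. For RAGE deletion in diabetes the count of 110 became 253 without dimmer probe sets, 0 with only the compared groups, 53 with array weights, 72 with 1 probe set per gene, 321 at B above 0, 6669 at an unadjusted p under 0.05, 22 without replicates 9 and 10 and 0 to 931 with 1 array left out. The interaction had 3251 at an unadjusted p under 0.05. The cause of these moves was not tested. No paired analysis was possible because the groups share no replicate numbers.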
